A study of Mus musculus with 12 samples.

Results

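The 5 genes described here are genes of mTORC1 signaling and of the lysosome. Mtor, Ulk1 and Lamp2 were named outright, and Rptor, Mlst8, Rheb, Lamtor1, Lamtor2, Lamtor4 and Lamtor5 were to be added wherever the study's supplemental lists paired the gene name with a transcript of the deposited count table. Lamtor1 and Lamtor4 were paired and the other 5 were not, so 5 of the 10 genes could be followed. They are 5 of the 20561 transcripts in the table, of which 2634 carried a name through those lists. The transcripts were ENSMUST00000103221 (Mtor), ENSMUST00000200299 (Ulk1), ENSMUST00000074913 (Lamp2), ENSMUST00000033131 (Lamtor1) and ENSMUST00000062067 (Lamtor4). Mtor and Ulk1 were in the study's list of transcripts with raised translation efficiency, which was drawn from these same libraries, so a rise in their translation efficiency is not independent evidence. Lamp2, Lamtor1 and Lamtor4 were paired through the study's list of 5′ UTR sequences alone. All 12 other genes of the pathway paired through that list alone had lower RNA and, with all libraries, higher translation efficiency in Prps2null lymphomas. Those 12 genes are of the same pathway, so they cannot tell a lean of the list from a direction that the pathway shares. The directions of Lamp2, Lamtor1 and Lamtor4 are therefore not taken as independent evidence either.

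RNA-seq measured transcript abundance and Ribo-seq measured ribosome-protected footprints (RPF) in mouse B cell lymphomas that carried the Eμ-Myc transgene, in which an immunoglobulin heavy chain enhancer drives Myc in B cells. One genotype was Eμ-Myc/+ and the other was Eμ-Myc/+ Prps2null, which in addition lacks Prps2, an enzyme that makes the phosphoribosyl pyrophosphate used in nucleotide synthesis. Both genotypes therefore share the transgene, and no lymphoma was treated. Frozen lymphoma cells were thawed and live cells were injected into the tail vein of male C57BL/6 hosts 8 weeks old, and B cells were then purified from lymph nodes with a kit. Each genotype had 3 lymphomas (biological replicates 1 to 3), each with an RNA-seq and a Ribo-seq library, 12 libraries in all. Whether the 3 allografts of a genotype came from 1 frozen stock or from separate tumors is not given in the sources used here, and the p-values measure the spread between these samples. In bulk samples, fewer cells of a type and less RNA per cell cannot be told apart.

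mTORC1 is a kinase complex that sits on the lysosomal surface and promotes protein synthesis and growth when amino acids are plentiful. Amino acids act through Rag GTPases, which the Ragulator complex (the Lamtor subunits) anchors to the lysosome, and growth factors act through the GTPase Rheb. Active mTORC1 phosphorylates ribosomal S6 kinases and 4E-BPs, and it phosphorylates ULK1 to restrain autophagy, the delivery of cytoplasm to lysosomes. Transcription factors of the TFEB family, themselves mTORC1 substrates, act on lysosomal genes through the palindrome CACGTG.

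The 5 genes differed in the sequence around their starts. In the RefSeq annotation of mouse build GRCm38.p6, the genome version also known as mm10, Mtor lies at chr4:148448582-148557685, Ulk1 at chr5:110784489-110810120, Lamtor4 at chr5:138255482-138259395, Lamtor1 at chr7:101905837-101911903 and Lamp2 at chrX:38399647-38456460, and all 5 are protein coding. Promoters, taken as 250 bases before to 50 bases after the start of each gene, were searched for CACGTG, which reads the same on both strands. It occurred 2 times in the Lamtor4 promoter, 120 and 104 bases before the start, and 1 time in the Lamtor1 promoter, 68 bases before the start. The windows, on the plus strand at chr5:138255352-138255377, chr5:138255368-138255393 and chr7:101905759-101905784, are shown because both Ragulator genes held the letters; the capitals mark CACGTG.
Lamtor4 first: agaaagttaaCACGTGaacagctttt
Lamtor4 second: aacagcttttCACGTGtaaaccaaac
Lamtor1: gccttcctatCACGTGccgcgggtcc
The promoters of Mtor, Ulk1 and Lamp2 did not hold these letters. CACGTG was in 7.15% of 32851 RefSeq promoters, in 8.09% of 27025 genes, and in 13% of the 2031 genes that carried a name here and had a promoter. A longer form, with GT directly before and AC directly after CACGTG, was in 0.37% of the 27025 genes and in none of the windows shown. A match describes the letters in the window only, and which factor, if any, binds there was not tested.

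A 5′ terminal oligopyrimidine (TOP) stretch is the feature through which mTORC1 is best known to set translation, and the study's list of 5′ UTR sequences held 4 of the 5 genes. Their first 15 bases are shown, 5′ to 3′, with any run of pyrimidines at the very start in capitals.
Mtor: gggtgttgaggctgg
Lamtor1: ggagcgagaggcagc
Lamtor4: TTTCTTCTTggaagc
Lamp2: ggtcttatgactcca
Lamtor4 opened with 9 pyrimidines, but its first base was not the cytosine that the study's definition of a TOP requires, and the other 3 opened with a purine. By that definition 3.49% of the 1463 sequences that could be read were TOP. Ulk1 was not in the readable part of that list.

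The deposited counts summed to between 4135908 and 6648829 per RNA-seq library and to between 975201 and 2793163 per Ribo-seq library. Levels are given as scaled CPM, that is, CPM computed on a library total that was adjusted by a median-of-ratios factor within each assay. Changes are log2 ratios of Eμ-Myc/+ Prps2null over Eμ-Myc/+ tested in edgeR by quasi-likelihood, with p-values adjusted by Benjamini-Hochberg over all transcripts tested. Prps2 RNA averaged 65.4 ± 3.80 scaled CPM over the Eμ-Myc/+ lymphomas (SD, n = 3). It averaged 8.65 ± 1.45 over the Prps2null lymphomas (SD, n = 3), and the groups did not overlap. Prps2 footprints went against the label in 2 of the 6 Ribo-seq libraries. The libraries labelled Eμ-Myc/+ had 163.5, 133.4 and 7.92 scaled CPM in replicates 1, 2 and 3, and those labelled Prps2null had 5.05, 140.3 and 9.44. The libraries labelled Eμ-Myc/+ replicate 3 and Prps2null replicate 2 thus stood with the other genotype. No library was moved to another group. Ribo-seq results are given by label with all 6 libraries and again without those 2, which leaves 2 against 2, and the footprint levels are also set beside Prps2 footprints with no test.

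**Figure D1:**
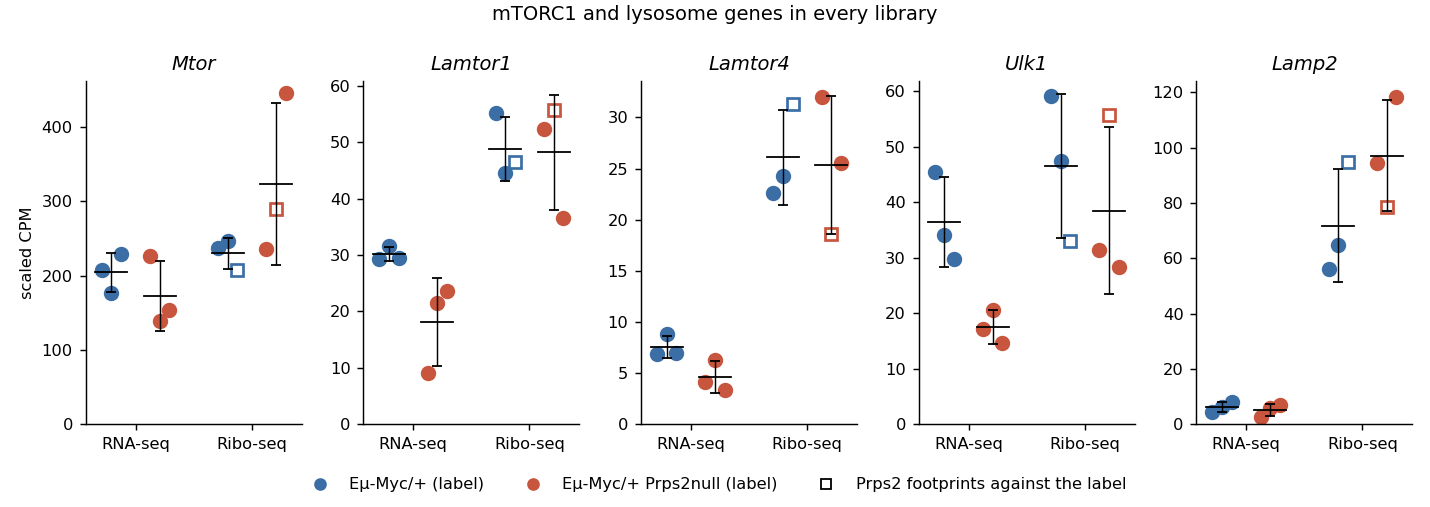
Scaled CPM of the 5 genes in each RNA-seq and Ribo-seq library, by labelled genotype; bars are the mean ± SD of 3 libraries and open squares mark the 2 Ribo-seq libraries whose Prps2 footprints go against their label. Ulk1, Lamtor1 and Lamtor4 RNA lay lower in every Prps2null library, and the labelled groups overlapped in footprints for all 5 genes.

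At the RNA level, Ulk1 fell, to less than its level in any Eμ-Myc/+ lymphoma, and the other 4 genes did not pass the test with all 6 libraries. The log2 change was below 0 for all 5, with a median of -0.71 against 0.08 over all 14682 transcripts tested. Across those transcripts 18.5% were called lower and 14.7% higher at an adjusted p of 0.05, so 1 called of 5 is close to the background. The groups did not overlap, with Prps2null lower, for Ulk1, Lamtor1 and Lamtor4, against 26.2% of all transcripts, and for none of the 5 with Prps2null higher, against 23.5%. The direction shared by the 5 genes is not taken as independent evidence, since the other pathway genes that the same lists named lean the same way. RNA changes were below 0 for all 35 other pathway genes paired through the study's list of raised translation efficiency. The same held for all 12 paired through its 5′ UTR list alone.

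Mtor encodes the kinase itself. Its RNA was 207.2, 177.2 and 229.4 scaled CPM in the 3 Eμ-Myc/+ lymphomas and 226.6, 139.3 and 153.2 in the Prps2null lymphomas. Prps2null replicate 1 was level with the Eμ-Myc/+ lymphomas while the other 2 were below all of them, so the groups overlapped. The change in RNA was -0.24 (SE 0.22, adjusted p = 0.399, edgeR), and without Prps2null replicate 1 it was -0.50 (adjusted p = 0.00272). Scaling by library totals alone moved the median of all transcripts from 0.08 to 0.37 and Mtor to 0.03, still below that median.

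Mtor footprints were 237.4, 246.6 and 207.0 scaled CPM in the libraries labelled Eμ-Myc/+ and 235.9, 289.9 and 445.8 in those labelled Prps2null. Prps2null replicate 3 stood well above the other 5 libraries, which lay between 207.0 and 289.9. The change by label was 0.50 (SE 0.25, adjusted p = 0.994, edgeR), and without the 2 libraries it was 0.50 (SE 0.20, adjusted p = 0.0628). Neither passed the test.

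Lamtor1 encodes the Ragulator subunit that wraps around the others and fixes them to the lysosomal membrane. Its RNA was 29.3, 31.6 and 29.5 scaled CPM in Eμ-Myc/+ and 9.14, 21.5 and 23.6 in Prps2null lymphomas. The 3 Eμ-Myc/+ values lay close together and every Prps2null value was below them, with replicate 1 the lowest. The change in RNA was -0.72 (SE 0.28) and just missed the threshold (adjusted p = 0.0548, edgeR). Without Prps2null replicate 2 or replicate 3 it was -0.89 (adjusted p = 0.0483) and -0.98 (adjusted p = 0.0119). Without Prps2null replicate 1, the lowest, it shrank to -0.44 (adjusted p = 0.0628, edgeR). With any single Eμ-Myc/+ lymphoma left out it did not pass (adjusted p between 0.0944 and 0.110, edgeR), so the call turned on single libraries.

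Lamtor1 footprints were 55.2, 44.5 and 46.5 scaled CPM in the libraries labelled Eμ-Myc/+ and 52.2, 55.7 and 36.6 in those labelled Prps2null. The labelled groups overlapped throughout. The change by label was -0.02 (SE 0.22, adjusted p = 0.996, edgeR) and without the 2 libraries -0.16 (SE 0.24, adjusted p = 0.635).

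Lamtor4 encodes a small Ragulator subunit of the roadblock fold. Its RNA was 6.83, 8.79 and 6.99 scaled CPM in Eμ-Myc/+ and 4.11, 6.34 and 3.34 in Prps2null lymphomas, from 18 to 54 counts per library. The groups did not overlap but came close, at 6.34 against 6.83. The change in RNA was -0.71 (SE 0.37, adjusted p = 0.155, edgeR) and did not pass the test.

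Lamtor4 footprints were 22.7, 24.3 and 31.3 scaled CPM in the libraries labelled Eμ-Myc/+ and 32.01, 18.6 and 25.5 in those labelled Prps2null. The highest and the lowest library both carried the Prps2null label. The change by label was -0.04 (SE 0.28, adjusted p = 0.994, edgeR), and without the 2 libraries it turned to 0.30 (SE 0.29, adjusted p = 0.465).

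Ulk1 encodes the kinase that starts autophagosome formation. Its RNA was 45.4, 34.0 and 29.7 scaled CPM in Eμ-Myc/+ and 17.1, 20.7 and 14.7 in Prps2null lymphomas. Every Prps2null lymphoma was below every Eμ-Myc/+ lymphoma, and the RNA fell by 1.05 on the log2 scale (SE 0.23, adjusted p = 0.00262, edgeR), a level 2.07-fold higher in Eμ-Myc/+. The fall held under all 12 alternatives, with adjusted p between 1.1e-04 and 0.0227.

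Ulk1 footprints were 59.1, 47.5 and 33.1 scaled CPM in the libraries labelled Eμ-Myc/+ and 31.5, 55.7 and 28.3 in those labelled Prps2null. The 2 libraries whose Prps2 footprints go against their label were the lowest of the Eμ-Myc/+ and the highest of the Prps2null libraries. By label the change was -0.28 (SE 0.34, adjusted p = 0.994, edgeR). Without those 2 libraries footprints fell by 0.83 on the log2 scale (SE 0.24, adjusted p = 0.0118), a level 1.78-fold higher in Eμ-Myc/+, where 17.9% of the 9048 transcripts tested were called lower.

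Lamp2 encodes a heavily glycosylated protein of the lysosomal membrane whose isoforms take part in chaperone-mediated autophagy and in fusion with autophagosomes. Its RNA was 4.64, 6.19 and 8.11 scaled CPM in Eμ-Myc/+ and 2.74, 6.01 and 6.86 in Prps2null lymphomas, from only 12 to 38 counts per library. The groups overlapped and the change was -0.26 (SE 0.41, adjusted p = 0.643, edgeR). At this depth no difference was detectable, and the sign turned when Prps2null replicate 1 was left out (0.0054) or library totals were used (0.02).

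Lamp2 footprints were 56.1, 64.7 and 94.7 scaled CPM in the libraries labelled Eμ-Myc/+ and 94.4, 78.4 and 118.2 in those labelled Prps2null. Eμ-Myc/+ replicate 3 overlapped the Prps2null libraries. By label the change was 0.42 (SE 0.26, adjusted p = 0.994, edgeR). Without the 2 libraries footprints rose by 0.82 on the log2 scale (SE 0.19, adjusted p = 0.00315), or 1.76-fold, where 18% of transcripts were called higher.

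Across the 5 genes, the Ribo-seq comparison by label called none, as it called 0% of 9031 transcripts in either direction by edgeR and by DESeq2. At an unadjusted p of 0.05 edgeR passed 47 transcripts, 0.52%. The labelled groups overlapped for all 5 genes, and they did not overlap in 2.3% of transcripts with Prps2null higher and in 2.31% with Prps2null lower. Without the 2 libraries it called 1 of 5 genes higher (Lamp2) and 1 lower (Ulk1), shares near the background of that comparison.

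Set beside Prps2 footprints, 3 of the 5 genes fell into ranges that did not meet. Over all 9031 transcripts 27.4% were separated in the same way with the higher level where Prps2 footprints were few and 27.1% with the lower level there, so 3 of 5 is near the background. In the 3 libraries with few Prps2 footprints (Eμ-Myc/+ replicate 3 and Prps2null replicates 1 and 3) Ulk1 lay between 28.3 and 33.1 scaled CPM, and in the 3 with many it lay between 47.5 and 59.1. Lamp2 lay between 94.4 and 118.2 where Prps2 footprints were few and between 56.1 and 78.4 where they were many. Lamtor4 lay between 25.5 and 32.01 and between 18.6 and 24.3. For Mtor, 207.0 to 445.8 and 237.4 to 289.9, and for Lamtor1, 36.6 to 52.2 and 44.5 to 55.7, the ranges overlapped. These are descriptions of 6 libraries, with no genotype assigned and no test.

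**Figure D2:**
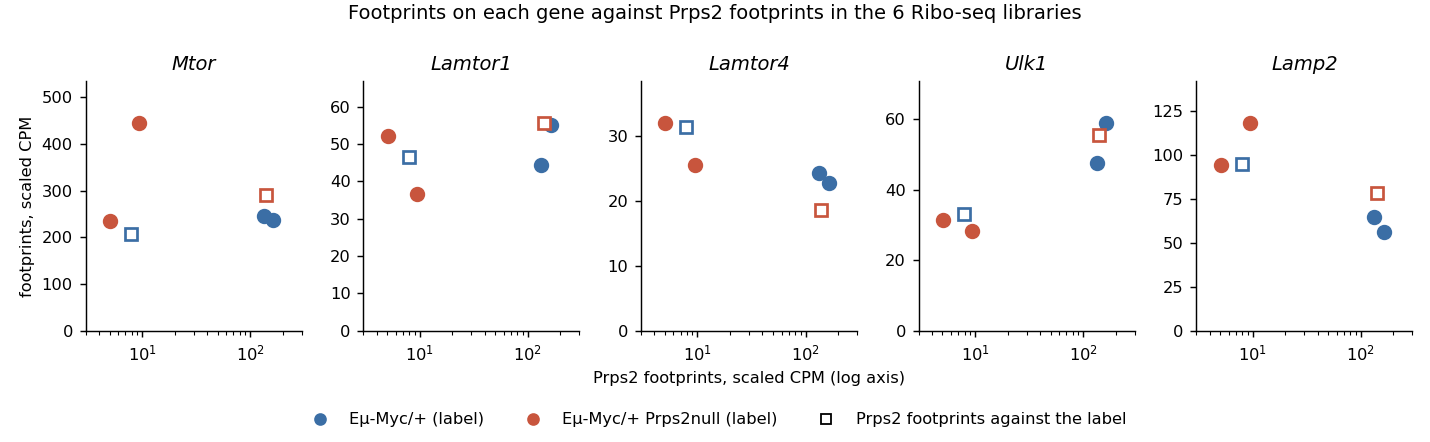
Footprints on each of the 5 genes (scaled CPM) against Prps2 footprints (scaled CPM, log axis) in the 6 Ribo-seq libraries; colour gives the labelled genotype and open squares the 2 libraries whose Prps2 footprints go against it. Ulk1 was between 28.3 and 33.1 in the 3 libraries with few Prps2 footprints and between 47.5 and 59.1 in the other 3, and Lamp2 lay the other way round.

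Translation efficiency (TE), the footprint level over the RNA level, was above 0 in log2 change for all 5 genes and passed the test for none. The changes were 0.74 (SE 0.35, adjusted p = 0.248, edgeR) for Mtor, 0.71 (SE 0.42, adjusted p = 0.349) for Lamtor1 and 0.66 (SE 0.43, adjusted p = 0.397) for Lamtor4. They were 0.77 (SE 0.42, adjusted p = 0.311) for Ulk1 and 0.68 (SE 0.45, adjusted p = 0.411) for Lamp2. The median over the 5 was 0.71 against 0.28 over all 8987 transcripts tested, of which 2.16% were called higher and 0.0334% lower. The median over all transcripts depends on the scaling, and with library totals alone it was -0.02, with the 5 genes still above 0. Without the 2 libraries the TE change of Ulk1 was 0.22 (SE 0.35, adjusted p = 0.741) and that of Lamp2 was 1.07 (SE 0.42, adjusted p = 0.163), and none of the 5 genes passed, where 3.14% of transcripts were called higher and 0.478% lower. The sign shared by the 5 genes is not independent evidence of a rise. Mtor and Ulk1 were in the study's list of raised TE, and the others were paired through its 5′ UTR list alone. With all libraries the TE change was above 0 for all 12 other pathway genes paired through the 5′ UTR list alone.

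A logistic regression of footprints against RNA counts, the kind of model the study used, passed all 5 genes, with adjusted p from 7.4e-24 for Mtor to 0.0395 for Lamtor4. That model counts reads as independent and holds no term for the spread between lymphomas, and it called 44.8% of transcripts higher (4026) and 11.3% lower (1013).

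**Figure D3:**
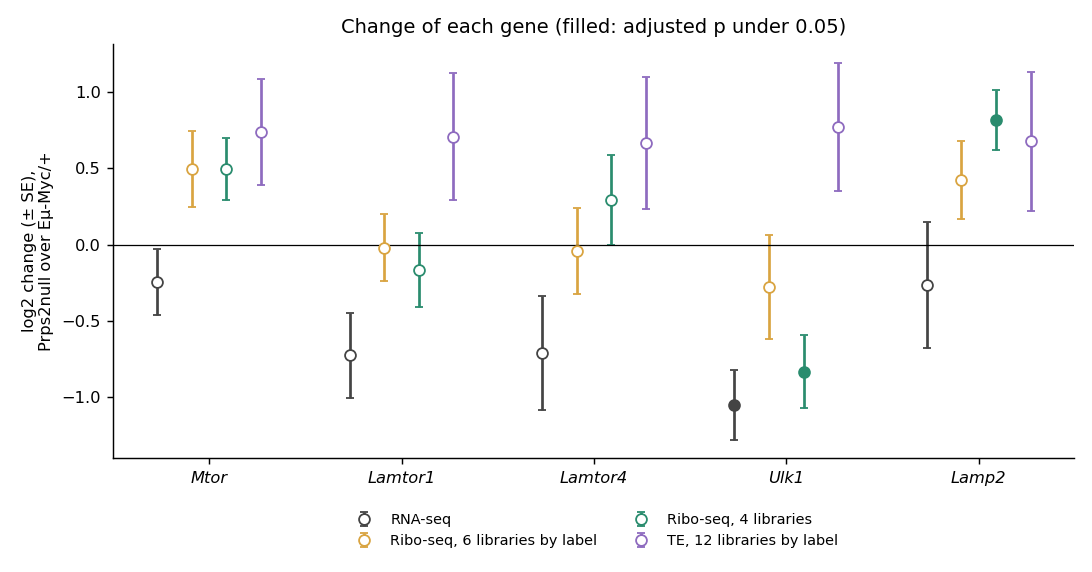
Log2 change of each gene, Prps2null over Eμ-Myc/+, ± SE, for RNA-seq, Ribo-seq by label, Ribo-seq without the 2 libraries (4 libraries) and TE by label; filled points have an adjusted p under 0.05. Ulk1 RNA at -1.05, Ulk1 footprints at -0.83 and Lamp2 footprints at 0.82 are filled, the last pair without the 2 libraries.

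Footprints per RNA differed between the 5 genes when each was set against the median transcript of the same label, Eμ-Myc/+ first and Prps2null second, with all 6 Ribo-seq libraries. Lamp2 stood at 7.17-fold and 9.44-fold the median, above 99.5% and 99.9% of transcripts. Lamtor4 stood at 2.18-fold and 2.84-fold, Lamtor1 at 1.01-fold and 1.36-fold, Ulk1 at 0.79-fold and 1.11-fold, and Mtor at 0.70-fold and 0.97-fold. Without the 2 libraries Lamp2 stood at 6.21-fold and 10.5-fold, Lamtor4 at 2.01-fold and 3.23-fold and Lamtor1 at 1.08-fold and 1.28-fold. Mtor then stood at 0.77-fold and 1.04-fold, and the order of the labels turned for Ulk1, at 0.96-fold and 0.90-fold. Each gene was represented by 1 isoform in the alignment, and the ratio for Lamp2 rests on its low RNA counts.

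Among 2455 other named transcripts tested in both assays, those most like each gene over the 12 libraries, by Pearson correlation of log2(CPM + 1) centered within each assay, were Naglu (r = 0.916), a lysosomal hydrolase, for Mtor, and Coq8a (r = 0.981) for Ulk1. They were Cenpt (r = 0.915) for Lamp2, Chrac1 (r = 0.986) for Lamtor1 and Stk19 (r = 0.880) for Lamtor4. The points share libraries and the search took the best of many, so these values are descriptions.

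Other genes of the pathway were taken from 6 lists, of whose 140 genes 54 were paired with a transcript. Of the 54, RNA of 34 fell and of 6 rose, with a median change of -0.78, where 18.5% of all transcripts fell and 14.7% rose with a median of 0.08. The list counts that follow are read against the same shares. The pairing itself leans on the outcome: 35 were paired through the study's list of raised TE, where 27 fell and 0 rose, and 7 through its list raised at both levels, where 6 rose and 0 fell. Of the 12 paired through the 5′ UTR list alone, 7 fell and 0 rose. These counts are therefore not independent evidence of a direction.

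Among nutrient-sensing genes and mTORC1 subunits, RNA of 3 of 7 rose and of 1 fell (all transcripts, 14.7% and 18.5%). Deptor, an inhibitory partner of mTOR, rose by 1.18, Castor2, an arginine-sensor family member, by 1.31 and Pik3cb, a PI3K catalytic subunit, by 1.56, while Akt1, a kinase upstream of mTORC1, fell by 1.15 on the log2 scale. Among mTORC1 substrates and effectors 7 of 8 fell and 0 rose, where 18.5% of all transcripts fell. Eif4b, an initiation factor, fell by 1.93, Rps6, the ribosomal protein S6, by 1.84, Eef2k, the elongation factor 2 kinase, by 1.23 and Pdcd4, an inhibitor of eIF4A, by 1.16. Rps6 RNA lay between 4035.6 and 4718.7 scaled CPM in Eμ-Myc/+ and between 928.0 and 1549.2 in Prps2null lymphomas, whereas its footprints overlapped by label, at 441.9 to 715.4 and 566.2 to 663.3.

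Among autophagy genes 2 of 4 fell, Atg3 by 1.47 and Gabarap by 1.06, both of the system that attaches ATG8 proteins to membranes. Among lysosomal membrane genes 5 of 9 fell and 1 rose. Npc2, a cholesterol carrier of the lysosomal lumen, fell by 1.59, Vps41, a tethering subunit, by 1.24 and Tmem106b by 1.15, while Slc36a1, a lysosomal amino acid exporter, rose by 1.26. Among hydrolases 13 of 18 fell, with Lgmn (1.87), Hexa (1.83) and the protease Ctsd (1.51) the furthest, and Arsb rose by 1.48. Among V-ATPase subunits, which acidify the lysosome, 6 of 8 fell, Atp6v0b by 1.63 and Atp6v1f by 1.01 among them, and Atp6v0a1 rose by 2.31.

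Lamp1, the partner of Lamp2 in the lysosomal membrane, fell in RNA by 0.67 on the log2 scale (SE 0.23, adjusted p = 0.0384, edgeR). Its RNA was 114.5, 102.1 and 108.8 scaled CPM in Eμ-Myc/+ and 42.5, 69.4 and 92.2 in Prps2null lymphomas, with no overlap. Its footprints were 138.9, 142.5 and 204.9 in the libraries labelled Eμ-Myc/+ and 228.6, 176.4 and 205.4 in those labelled Prps2null, and without the 2 libraries they rose by 0.63 (SE 0.14, adjusted p = 0.00219). Slc15a3, the lysosomal peptide transporter, changed in RNA by 1.08 (SE 0.41, adjusted p = 0.0540), and its footprints were 6.89, 1.01 and 37.9 scaled CPM against 39.9, 8.25 and 40.0, high in the 3 libraries with few Prps2 footprints.

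By label, 0 of the 50 pathway genes tested in Ribo-seq passed. Without the 2 libraries 9 rose and 13 fell, where 18% of all transcripts rose and 17.9% fell, so the count that rose is at the background and the count that fell is near it. Of the 9 lysosomal membrane genes 4 rose and 2 fell, and among those that rose Slc15a3 and Slc36a1 were paired through the list raised at both levels. Of 18 hydrolases 3 rose and 5 fell, and of 8 V-ATPase subunits 1 rose and 2 fell. Of 5 nutrient-sensing genes and mTORC1 subunits tested 1 rose and 1 fell. Of 7 substrates and effectors 0 rose and 2 fell, and of 3 autophagy genes 0 rose and 1 fell. Arsb had 0 footprints in Eμ-Myc/+ replicates 1 and 2 and Prps2null replicate 2 and 54.0, 31.6 and 65.8 in the other 3 libraries, so its fitted change of 8.26 is no measure of size. For TE 6 of 50 rose and 0 fell, Rps6, Eif4b, Ctsb, Ctsd, Gusb and Atp6v0b, where 2.16% of all transcripts rose, and all 6 had been paired through the study's list of raised TE. Without the 2 libraries 9 rose and 0 fell, where 3.14% rose, and all 9 had been paired through that list. With all libraries 3 rose with the lymphoma as a replicate block, which takes up that an RNA-seq and a Ribo-seq library come from the same lymphoma by label. The count of 6 was 0 without Eμ-Myc/+ replicate 1 or 2 or Prps2null replicate 2, 1 without Eμ-Myc/+ replicate 3 and 2 without Prps2null replicate 3.

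**Figure D4:**
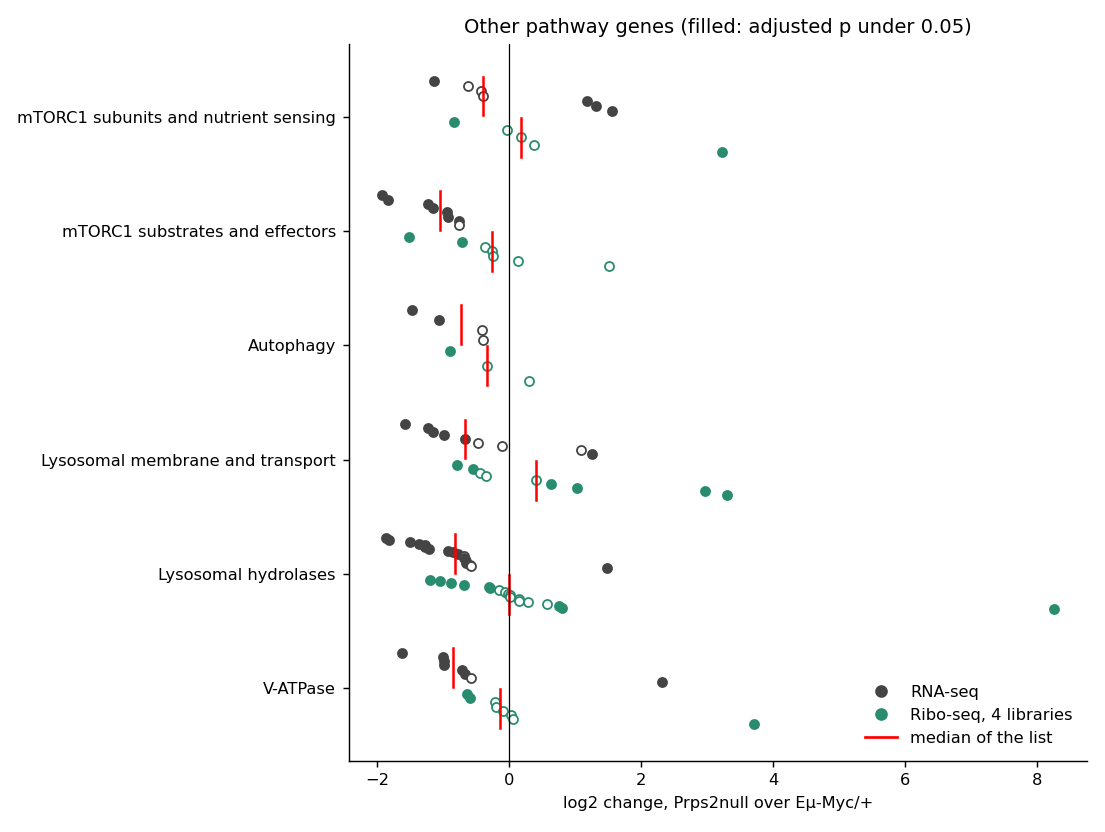
Log2 change of each paired pathway gene, Prps2null over Eμ-Myc/+, in RNA-seq (dark) and in Ribo-seq without the 2 libraries (green), by list; filled points have an adjusted p under 0.05 and red bars are list medians. RNA medians lay below 0 in every list, and the point at 8.26 is Arsb, which had 0 footprints in both remaining Eμ-Myc/+ libraries.

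Markers of the B cells themselves and of other cells moved as well. Of 10 B cell markers 6 were paired, and their summed RNA was 2287 to 3391 scaled CPM in Eμ-Myc/+ and 427 to 821 in Prps2null lymphomas. They did not move together, since 5 fell, Cd74 by 2.83 on the log2 scale, and Ms4a1 rose by 3.09. Ms4a1 was paired through the study's list raised at both levels, and the 5 that fell through its lists of raised TE or 5′ UTR sequences. Macrophages are rich in lysosomes, and 8 of 10 of their markers summed to 128 to 180 in Eμ-Myc/+ and 76.2 to 80.9 in Prps2null RNA. Of the 8, 3 fell and 0 rose, with Csf1r at -0.19 and Mrc1 at 0.21. Ly86 fell the furthest, by 2.42 on the log2 scale. In footprints the macrophage sum was 314, 347 and 391 in the libraries labelled Eμ-Myc/+ and 314, 565 and 475 in those labelled Prps2null. Without the 2 libraries 5 of 8 macrophage markers rose and 1 fell (all transcripts, 18% and 17.9%), and the 1 that fell was Ly86, by 1.33. In the same comparison Lamp2 and Lamp1 rose, whereas 3 of 18 hydrolases rose and 5 fell, and 1 of 8 V-ATPase subunits rose and 2 fell. The 4 stromal markers of 6 that were paired summed to 57.6 to 122.8 in Eμ-Myc/+ and 15.2 to 27.4 in Prps2null RNA, where 3 of 4 fell, Col3a1 by 4.31 on the log2 scale, beside the lower RNA of lysosomal genes. Their footprints summed to 592 in Prps2null replicate 2 and to 67.4 to 248 in the other Ribo-seq libraries. Lck, the 1 T cell marker of 6 that was paired, was 26.9 to 38.3 in Eμ-Myc/+ and 15.8 to 17.6 in Prps2null RNA. The macrophage, stromal and T cell markers were all paired through the list of raised TE. The RNA directions of the markers are therefore not independent evidence. None of these markers was at 0 in any library, and their part in the changes of the lysosomal genes was not tested.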

How the data were processed

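Both assays were run on the same 6 lymphomas, by label. The authors aligned reads with Bowtie2 2.3.5 to 1 isoform per gene, that with the longest coding sequence (build mm10 in the submitters' processing notes). For RNA-seq they deposited raw counts per transcript. For Ribo-seq the authors trimmed reads with cutadapt 2.3, collapsed molecular identifiers, selected read lengths of 23 to 32 nucleotides and adjusted counts per codon for ribosome stalling, so the deposited values are estimated counts (54.3% not whole), which were rounded here. RNA-seq counting error is largest for Lamp2 and Lamtor4.

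Tests used edgeR 4.0.16 in R 4.3.3 (glmQLFit, glmQLFTest, default filterByExpr, median-of-ratios scaling within each assay, adjusted p threshold 0.05). TE was the genotype by assay interaction over 12 libraries, in transcripts that passed the filter in both assays. Code was tested on simulated data. Alternatives were DESeq2 1.42.0, other scalings and filters, replicate and lymphoma blocks, logistic regression and libraries left out. The RNA-seq and Ribo-seq libraries of a number come from 1 lymphoma by label, and their deviations correlated between -0.16 and 0.09. Named pathway genes were the up to 4 of each list with the largest RNA change among those called, plus Rps6, Lamp1, Slc15a3 and Slc36a1. Others named were chosen after their values were seen. Members and lists were chosen with earlier results of these data known. Promoters come from RefSeq (GRCm38.p6), and 5′ UTR starts and gene names from the study's supplemental lists, whose values were not used.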

Additional observations from a re-analysis of the deposited data

How the results depend on the processing

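Of 215 alternative values for the 5 genes, 195 kept their direction and did not cross the threshold. These include the DESeq2 TE values of Lamp2, Lamtor1, Lamtor4 and Ulk1, which had no adjusted p and so no side of the threshold. Ribo-seq by label called 0 transcripts of any kind in every alternative that kept at least 1 of the 2 doubted libraries, so its agreement there says little. Library totals turned Lamp2 RNA to 0.022 and Mtor RNA to 0.031. Without the 2 Ribo-seq libraries whose Prps2 footprints go against their label, footprint changes were 0.82 for Lamp2, -0.83 for Ulk1 and 0.30 for Lamtor4, and 9 pathway genes were called higher and 13 lower. Lamtor1 RNA passed with no filter on low counts (-0.80). TE under logistic regression was 0.73 for Mtor, 0.78 for Ulk1, 0.71 for Lamp2, 0.72 for Lamtor1 and 0.67 for Lamtor4, with 45 of 50 pathway genes higher and 1 lower, where 44.8% of all transcripts were higher and 11.3% lower. Pathway TE calls (6 higher) were 12 by DESeq2, 0 by library totals and 3 by scaling over all 12 libraries.

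With 1 lymphoma left out at a time, RNA changes ranged from -0.54 to 0.0054 for Lamp2, -0.98 to -0.44 for Lamtor1 and -0.50 to -0.13 for Mtor, and footprint changes by label ranged from -0.13 to 0.15 for Lamtor1, -0.24 to 0.14 for Lamtor4, 0.19 to 0.68 for Mtor, -0.62 to -0.07 for Ulk1 and 0.26 to 0.70 for Lamp2. TE changes ranged from 0.40 to 1.19 for Mtor, 0.34 to 1.15 for Lamtor1, 0.41 to 1.16 for Lamtor4, 0.60 to 0.90 for Ulk1 and 0.44 to 0.93 for Lamp2. Pathway TE calls ranged from 0 to 7 higher.

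The replicate numbers did not pair the genotypes in RNA-seq, where deviations of same-numbered lymphomas correlated at -0.22, -0.12 and 0.03. In Ribo-seq the correlations were -0.63, 0.74 and 0.72. They cannot tell whether the numbers pair, since deviations were taken from labelled means that include the 2 libraries whose Prps2 footprints go against their label. With the replicate block Lamtor1 RNA was -0.81 (adjusted p = 0.0323, edgeR), and 3992 transcripts were called in RNA-seq in place of 4875. In TE, the replicate block as 1 term over both assays called 71 transcripts in place of 197 and 4 pathway genes. A replicate block within each assay, chosen after seeing the data, called 265 and 7. Neither changed a call for the 5 genes. With the lymphoma as replicate block TE calls fell to 42, and to 3 pathway genes. Where no cause is given, the cause was not tested. Depth limits the RNA values of Lamp2 (12 to 38 counts per library) and Lamtor4 (18 to 54) most. In Ribo-seq Lamp2 had 57.1 to 274.7 counts.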
